A study of Mus musculus with 13 samples.

Results

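The caveola coat genes were read in RNA from fat cells of mice fed HFD (high-fat diet) or chow. They were chosen by symbol as the 2 caveolins of fat (Cav1 and Cav2), 3 cavins (Cavin1, Cavin2 and Cavin3, listed under the older symbols Ptrf, Sdpr and Prkcdbp) and 2 proteins of the caveolar neck and rim (Ehd2 and Pacsin2). All 7 were among the 11761 genes listed, and all 7 were among the 11643 tested. The HFD group had 3 libraries and the chow group had 3, all from C57BL/6J Adipoq-NuTRAP mice kept on their diet for 10 weeks. In these mice the adiponectin gene's promoter restricts a GFP tag on ribosomes to adipocytes, and translating RNA was recovered from epididymal white fat with an antibody to GFP (TRAP). The protocol describes depletion of ribosomal RNA and a kit that does not keep strand, while the molecule label reads polyA RNA. The mice had been maintained on chow with 6.4% fat by weight, the make-up of the HFD was not given in the sources used here, and the chromatin samples of the series were not analysed here. The labels do not tie the 3 libraries of a diet to different mice, so the error behind each p-value is library-to-library variation and may be technical.

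Caveolae are small flask-shaped pits of the plasma membrane and are especially dense in adipocytes. Caveolins insert into the inner leaflet as hairpins together with cholesterol, cavins assemble on them as an outer coat, the ATPase EHD2 holds the neck at the surface, and the membrane-bending protein PACSIN2 helps to shape the pit. The pits flatten when the membrane is stretched, and mice or people without CAV1 or CAVIN1 lose fat tissue.

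Values are CPM (reads of a gene scaled to an effective library size), taken out of the deposited log2 scale. That size can differ from the total reads of a library. The values are not divided by transcript length, so they order libraries and not genes. A gene was said to have risen or fallen where limma's moderated test on log2(CPM + 1), fitted over all tested genes, gave a Benjamini-Hochberg adjusted p of at most 0.05. By that rule 35.1% of tested genes differed between HFD and chow, 19.1% higher and 16.0% lower in HFD. Effective library sizes recovered from the steps between low values ran from 32000000 to 39400000 reads in HFD and from 7430000 to 32400000 in chow, with chow replicate 3 the shallowest. The members were read deeply enough (851 reads or more in every library) that counting error stayed at or under 3.43% of a value. The summed CPM of chow replicate 3 was 1182123, against 984422 to 1030469 in the other 5 libraries, and each of the 7 members had its highest chow value in that library. The ribosomal RNA precursor Rn45s had 4068 to 10300 CPM in HFD libraries, against 6654 and 12500 CPM in chow replicates 2 and 1 and 23170 CPM in chow replicate 3. Of 30 adipocyte identity genes 28 were listed, and 4 rose and 11 fell in HFD. Without 1 library 3 to 5 rose and 7 to 14 fell, and 7 rose and 7 fell when libraries were scaled to these genes themselves. Their summed level was 42090 to 47800 CPM in HFD libraries and 45460 to 70250 CPM in chow libraries.

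Of the 7 genes 6 have starts in the RefSeq promoter table (GRCm38.p6, the mm10 build), 10 starts in all, and Cavin3 is not among them. Cav1 lies on chromosome 6 at 17306335 to 17341328 and Cav2 beside it at 17281185 to 17289130, with 17204 bases between the genes. Cavin1 lies on chromosome 11 at 100956736 to 100970617, Cavin2 on chromosome 1 at 51289126 to 51302960 and Cavin3 on chromosome 7 at 105480616 to 105482197. Ehd2 lies on chromosome 7 at 15946963 to 15967535 and Pacsin2 on chromosome 15 at 83375607 to 83464610. The table's own gene identifiers are uc009azo.2 (Cav1), uc009azn.2 (Cav2), uc007lmr.2 (Cavin1), uc007axk.1 (Cavin2), uc009iye.1 (Cavin3), uc009fgt.1 (Ehd2) and uc007xba.2 (Pacsin2). The spans of Cavin2, Ehd2 and Pacsin2 overlap other annotated genes, none of which was listed in the expression table, and with unstranded libraries reads of such neighbours could not be separated. The 250 bases before 1 start each are shown for the 2 neighbouring caveolins and for Cavin1, the pair and the cavin whose levels are set against each other below. Capitals mark AGGTCA (a nuclear receptor half-site), GGGCGG (a GC box) and CCAAT on either strand.
Cav1 chr6:17306085-17306334 (+): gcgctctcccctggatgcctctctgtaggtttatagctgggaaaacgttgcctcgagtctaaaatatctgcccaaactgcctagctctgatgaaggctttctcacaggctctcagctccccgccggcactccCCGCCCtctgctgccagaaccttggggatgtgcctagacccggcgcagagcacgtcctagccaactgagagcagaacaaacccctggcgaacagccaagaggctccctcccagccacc
Cav2 chr6:17280935-17281184 (+): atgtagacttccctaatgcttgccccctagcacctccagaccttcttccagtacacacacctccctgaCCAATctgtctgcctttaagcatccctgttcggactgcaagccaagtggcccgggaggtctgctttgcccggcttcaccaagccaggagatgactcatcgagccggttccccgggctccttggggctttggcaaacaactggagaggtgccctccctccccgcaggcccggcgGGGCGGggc
Cavin1 chr11:100970618-100970867 (-): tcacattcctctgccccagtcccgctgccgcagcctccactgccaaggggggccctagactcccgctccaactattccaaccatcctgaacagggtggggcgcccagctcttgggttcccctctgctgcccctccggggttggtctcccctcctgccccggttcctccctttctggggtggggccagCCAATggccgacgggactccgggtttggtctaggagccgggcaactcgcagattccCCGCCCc
The Cav1 window shown held 1 GC box, and those of Cav2 and Cavin1 each held 1 GC box and 1 CCAAT. Another Cav1 start, with its window at 17307390 to 17307639, held none of these motifs. Of the 10 starts 6 held GGGCGG, 6 held CCAAT and 1, a Pacsin2 start, held AGGTCA. Some starts belong to the same gene. The Cavin1 windows at 100970616 to 100970865 and 100970618 to 100970867 overlap almost wholly, so the same GC box and CCAAT are counted again. No motif contains another, though GGGCGG and CCAAT can share letters where they lie on opposite strands. Over all 32851 windows of the same length in the table the shares were 32.7% for GGGCGG, 33.8% for CCAAT and 14.0% for AGGTCA. Such matches only describe the letters of a window.

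Of the 7 coat genes 1, Cavin3, rose in HFD (14.3%, against 35.1% of all tested genes in either direction and 19.1% higher). None fell by limma's adjusted p, against 16.0% of all genes, and none fell with limma's voom weights on recovered reads. At an unadjusted p under 0.05 there was 1 lower gene, Cav2. The median log2 fold change of the 7 was -0.10, with -0.004 over all tested genes. In bulk RNA, fewer cells of a type and less RNA per cell cannot be told apart.

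**Figure D1:**
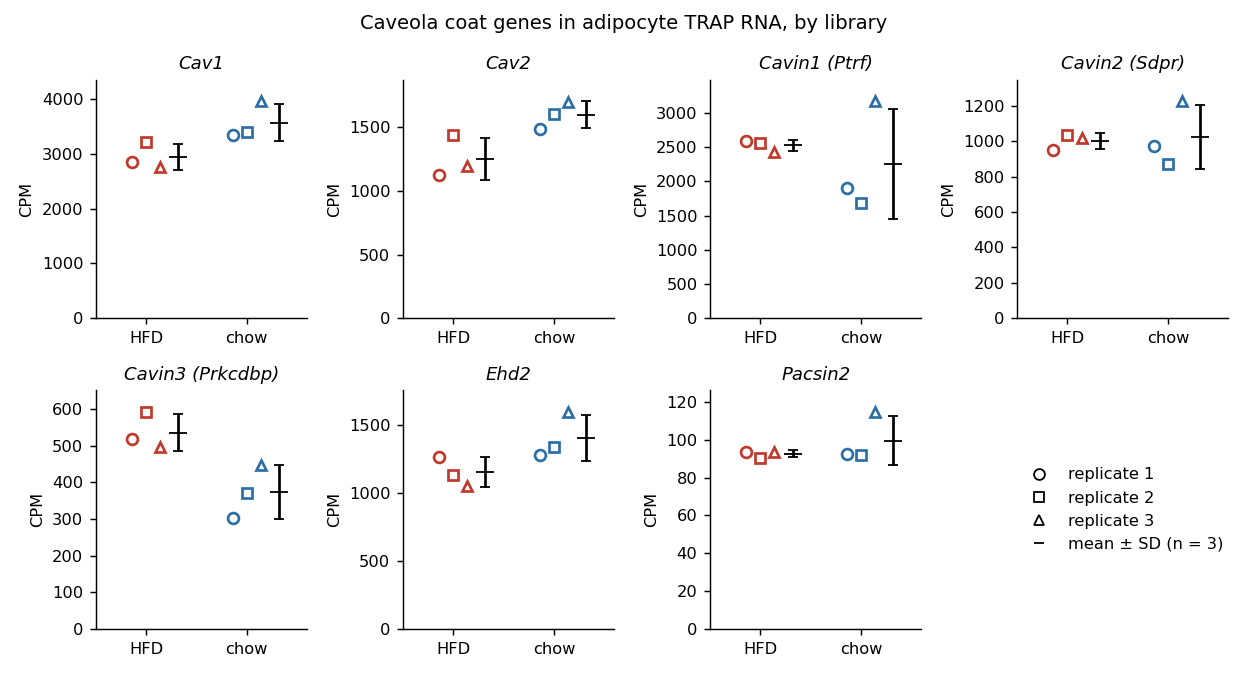
Level of each caveola coat gene in CPM (linear axes from 0) in the 3 HFD libraries (red, left) and the 3 chow libraries (blue, right), with the mean ± SD in black. Cavin3 lies at 498 to 592.2 CPM in HFD and at 302.3 to 448.8 CPM in chow, and in every panel the highest chow point is replicate 3.

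Cav1, which forms the caveolar membrane coat, had 2856, 3214 and 2759 CPM in HFD libraries, against 3350, 3397 and 3956 CPM in chow libraries. On the deposited scaling every HFD library lay below every chow library. The means were 2943 ± 239 CPM in HFD and 3568 ± 337 CPM in chow (SD, n = 3 each), a log2 fold change of -0.28 (SE 0.17), which did not pass (limma, Benjamini-Hochberg adjusted p = 0.223). The 95% interval, -0.65 to 0.10, held changes of either sign.

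Cav2, the partner caveolin that oligomerises with CAV1, had 1128, 1438 and 1193 CPM in HFD libraries, against 1489, 1607 and 1698 CPM in chow libraries. Again no HFD library reached a chow value. Its log2 fold change was -0.36 (SE 0.15, 95% interval -0.70 to -0.02) and did not pass (limma, Benjamini-Hochberg adjusted p = 0.0965). Cav1 and Cav2 varied together, with r = 0.94 over the 6 libraries and r = 0.83 after each diet's mean was taken out, a description over values that share a library.

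Of the cavins, Cavin1, without which caveolae do not form, had 2592, 2557 and 2435 CPM in HFD libraries, against 1898, 1687 and 3169 CPM in chow libraries. The coefficient of variation was 3.25% in HFD and 35.6% in chow, where replicate 3 lay far above the other 2. The diets overlapped, and the log2 fold change of 0.22 (SE 0.23, 95% interval -0.30 to 0.75) did not pass (limma, Benjamini-Hochberg adjusted p = 0.485). This rests on 1 library: without chow replicate 3 the log2 fold change was 0.50 and passed (limma, Benjamini-Hochberg adjusted p = 0.0191).

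Cavin2, a phosphatidylserine-binding cavin that promotes membrane curvature, had 948.8, 1038 and 1017 CPM in HFD libraries, against 975.5, 873.1 and 1226 CPM in chow libraries. The HFD values lay inside the wider range of the chow values. Its log2 fold change was -0.02 (SE 0.16, 95% interval -0.37 to 0.33, limma, Benjamini-Hochberg adjusted p = 0.934), and the sign changed when chow replicate 3 (0.12) or HFD replicate 1 (0.02) was left out.

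Cavin3, found as a binding protein of protein kinase C delta, had 519.1, 592.2 and 498 CPM in HFD libraries, against 302.3, 372.2 and 448.8 CPM in chow libraries. All HFD libraries lay above all chow libraries. The means were 536.5 ± 49.4 CPM in HFD and 374.5 ± 73.3 CPM in chow (SD, n = 3 each), 1.43-fold, with a log2 fold change of 0.53 (SE 0.16, 95% interval 0.17 to 0.90, limma, Benjamini-Hochberg adjusted p = 0.0306). The size of this change was at the 64.5th percentile of the sizes over all tested genes. The call is close to the threshold. It was lost when any of HFD replicates 1, 2 and 3 or chow replicates 1 and 2 was left out, with log2 fold changes of 0.55, 0.46, 0.58, 0.39 and 0.54 in that order and limma's Benjamini-Hochberg adjusted p from 0.0592 to 0.108. Without chow replicate 3 it was kept (0.67, limma's Benjamini-Hochberg adjusted p = 0.00928), and without the variance trend the limma adjusted p was 0.0515.

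Of the neck and rim proteins, Ehd2 had 1269, 1136 and 1053 CPM in HFD libraries, against 1278, 1342 and 1596 CPM in chow libraries. HFD replicate 1 lay just under chow replicate 1, and the log2 fold change of -0.28 (SE 0.15, 95% interval -0.62 to 0.06) did not pass (limma, Benjamini-Hochberg adjusted p = 0.176). Pacsin2 had 93.7, 90.51 and 93.7 CPM in HFD libraries, against 92.41, 91.77 and 114.6 CPM in chow libraries. Apart from chow replicate 3 all its values fell within 90.51 to 93.7 CPM, and its log2 fold change was -0.10 (SE 0.13, 95% interval -0.38 to 0.19, limma, Benjamini-Hochberg adjusted p = 0.592).

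Among the 7 genes 4 (Cav1, Cav2, Cavin3 and Ehd2) did not overlap between the diets, against 50.2% of all tested genes. When each library was rescaled to the same summed CPM, 1 of the 7 did not overlap, Cavin3, against 49.3% of all tested genes. Cav1 then had 2867, 3265 and 2766 CPM in HFD libraries, against 3251, 3356 and 3347 CPM in chow libraries, so that HFD replicate 2 exceeded chow replicate 1. Cavin3 then had 521.1, 601.6 and 499.2 CPM in HFD libraries, against 293.4, 367.7 and 379.7 CPM in chow libraries, and its log2 fold change of 0.64 passed (limma, Benjamini-Hochberg adjusted p = 0.00731). When libraries were scaled instead to the 28 adipocyte identity genes, the median of all genes shifted to 0.31, Cav1 came to 0.06, Cav2 to -0.02 and Ehd2 to 0.05 with none passing, while Cavin1 at 0.56 (limma, Benjamini-Hochberg adjusted p = 0.0191) and Cavin3 at 0.87 (limma, Benjamini-Hochberg adjusted p = 0.00174) passed.

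**Figure D2:**
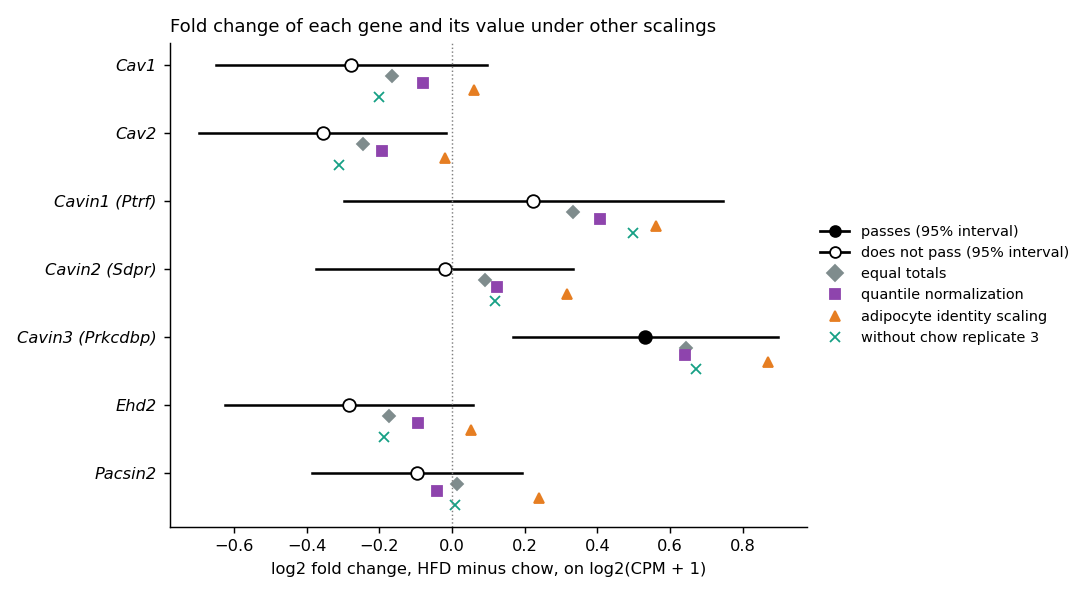
Log2 fold change of each caveola coat gene, HFD minus chow, on log2(CPM + 1), with its 95% interval (black line), and the value under 3 other scalings and without chow replicate 3 (symbols below). Cavin3 and Cavin1 are to the right of 0 under all of them, and Cav2 is to the left. Cav1, Ehd2, Cavin2 and Pacsin2 lie on either side of 0 depending on the scaling or on chow replicate 3.

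Ratios within a library do not depend on how libraries are scaled to each other. The log2 ratio of Cavin3 to Cav1 was -2.46, -2.44 and -2.47 in HFD libraries, against -3.47, -3.19 and -3.14 in chow libraries. That is 18.2 Cavin3 reads for every 100 Cav1 reads in HFD and 10.4 in chow. The 3 HFD ratios lay within a narrow band clear of all chow ratios. An exact permutation test gave p = 0.1, the smallest that 3 libraries against 3 allow (two-sided), and 0.2 after Benjamini-Hochberg adjustment over the 8 ratios computed. With Cav1 set equal in every library, a scaling chosen after the data were seen, Cavin3 was higher in HFD by 0.81 on the log2 scale (SE 0.13, limma, Benjamini-Hochberg adjusted p = 0.00172). That difference combines the log2 fold change of Cavin3 itself, 0.53, with that of Cav1, -0.28, which did not pass. Relative to Cav1, 28.0% of tested genes were higher and 6.33% lower in HFD, and the Cavin3 call held without each library in turn (0.71 to 0.87, limma, Benjamini-Hochberg adjusted p 0.00291 to 0.0089).

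Cavin1 relative to Cav1 had log2 ratios of -0.14, -0.33 and -0.18 in HFD libraries, against -0.82, -1.01 and -0.32 in chow libraries. Chow replicate 3 reached the HFD range, and the exact permutation p was 0.2 (0.267 adjusted over the 8 ratios). Cavin2 relative to Cav1 had -1.59, -1.63 and -1.44 in HFD libraries, against -1.78, -1.96 and -1.69 in chow libraries. These did not overlap, at the smallest exact permutation p of 0.1 (0.2 adjusted). With Cav1 set equal, neither Cavin1 (0.50, SE 0.19, limma, Benjamini-Hochberg adjusted p = 0.0673) nor Cavin2 (0.26, SE 0.14, limma, Benjamini-Hochberg adjusted p = 0.171) passed.

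Ehd2 relative to Cav1 had log2 ratios of -1.17, -1.50 and -1.39 in HFD libraries, against -1.39, -1.34 and -1.31 in chow libraries, or 39.3 Ehd2 reads per 100 Cav1 reads in both diets. Cav2 came to 42.5 reads per 100 of Cav1 in HFD and 44.9 in chow, and the exact permutation p was 0.5. Pacsin2 came to 3.16 reads per 100 of Cav1 in HFD and 2.79 in chow, with an exact permutation p of 0.2 (0.267 adjusted). None of these 3 passed with Cav1 set equal.

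**Figure D3:**
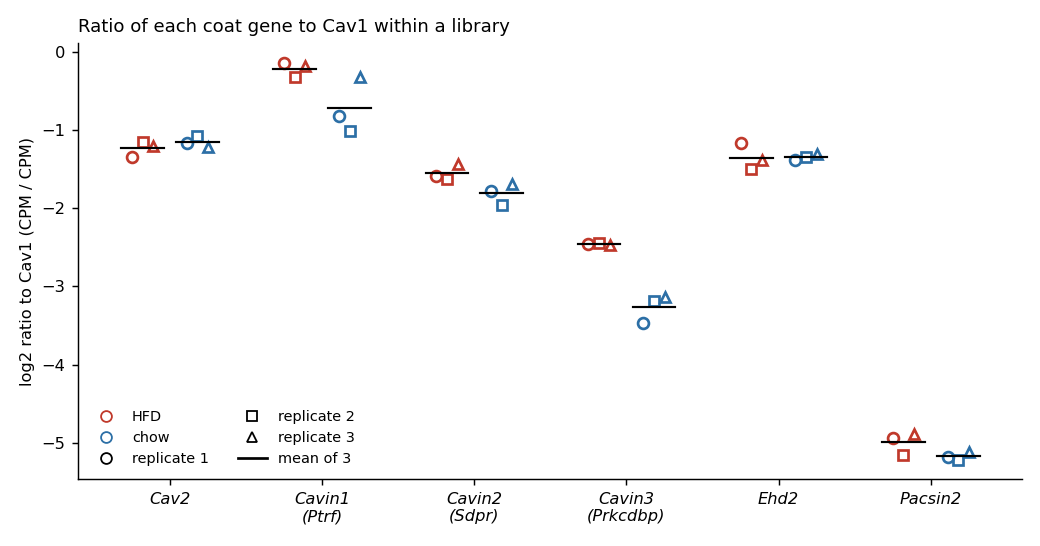
Log2 ratio of each coat gene to Cav1 within a library (CPM over CPM, not per transcript length) in HFD (red, left of each pair) and chow (blue, right), with the mean of 3 as a black line. Cavin3 lies between -2.47 and -2.44 in HFD and between -3.47 and -3.14 in chow, while Ehd2 and Cav2 overlap between diets.

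The coat genes did not share 1 pattern over libraries. Cavin1 and Cavin2 had r = 0.84 over the 6 libraries, whereas Cav1 and Cavin1 had r = 0.12, and Cav1 and Cavin3 had r = -0.37. After each diet's mean was taken out the same 3 pairs had r of 0.94, 0.76 and 0.88, so within diets all 3 pairs moved the same way. These values share libraries and scaling and are a description. Among 8733 other genes the 3 most like Cav1 by Pearson's r over the 6 libraries were Ndufaf5 (0.9937), Slc25a4 (0.9911) and Ubb (0.9905). Those most like Cavin1 were Golga2 (0.9985), Nfe2l1 (0.9885) and Tmbim1 (0.9786). Golga2 had 159.8, 157.6 and 156.5 CPM in HFD libraries, against 145, 139.1 and 168.9 CPM in chow libraries, the same order of libraries as Cavin1 with chow replicate 3 at the top.

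Among close relatives of the coat genes, 1 EHD family gene and 1 PACSIN gene passed in every alternative planned. Of 7 paralogs named, 4 were listed, and 2 rose, 1 fell and 1 did not pass (Cav3, Cavin4 and Pacsin1 were not among the listed genes). Of the 4 listed 75% were called, against 35.1% of all tested genes in either direction. Ehd3, an EHD family ATPase of recycling endosomes, had 129.8, 148.1 and 90.51 CPM in HFD libraries, against 58.49, 72 and 49.52 CPM in chow libraries. It rose by 1.01 on the log2 scale (SE 0.20, limma, Benjamini-Hochberg adjusted p = 0.00469). Pacsin3, the PACSIN form abundant in muscle, had 32.45, 23.75 and 22.16 CPM in HFD libraries, against 78.25, 67.65 and 105.4 CPM in chow libraries. It fell by 1.64 on the log2 scale (SE 0.20, limma, Benjamini-Hochberg adjusted p = 0.000318). Both calls held in all 16 of those alternatives.

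Set against the coat member of its own family, Pacsin3 came to 28.2 reads per 100 of Pacsin2 in HFD and 83.5 in chow, and Ehd3 to 10.6 reads per 100 of Ehd2 in HFD and 4.35 in chow. For each of these ratios the diets did not overlap, and the exact permutation p was 0.1, the smallest possible (0.2 adjusted over the 8 ratios). Both ratios were chosen after their values were seen. Ehd4 averaged 34.2 ± 6.3 CPM in HFD and 24.0 ± 1.1 CPM in chow (SD, n = 3 each), with a log2 fold change of 0.48 (limma, Benjamini-Hochberg adjusted p = 0.0453). That call was lost without HFD replicate 1 or 2 or any chow replicate (limma, Benjamini-Hochberg adjusted p 0.0553 to 0.147). Ehd1 averaged 204.7 ± 6.8 CPM in HFD and 165.4 ± 13.9 CPM in chow and did not pass (limma, Benjamini-Hochberg adjusted p = 0.0692).

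Of 9 genes for fission and anchoring of the pits, 3 rose (33.3%, against 35.1% of all tested genes in either direction). None of the 9 fell by limma's adjusted p, by an unadjusted p under 0.05 or with voom weights. The median log2 fold change was 0.02. Csk, the kinase that restrains Src family kinases, had 81.01, 74.54 and 88.65 CPM in HFD libraries, against 36, 43.11 and 41.64 CPM in chow libraries. It rose by 1.00 on the log2 scale (SE 0.13, limma, Benjamini-Hochberg adjusted p = 0.000522). Fyn, a Src family kinase that phosphorylates caveolin, rose by 0.98 on the log2 scale (SE 0.22, limma, Benjamini-Hochberg adjusted p = 0.00764) and averaged 12.0 ± 3.1 CPM in HFD and 5.51 ± 0.78 CPM in chow (SD, n = 3 each). The third was Flna, an actin cross-linker that binds CAV1, named after its value was seen, with 0.67 (limma, Benjamini-Hochberg adjusted p = 0.0273), a call lost without HFD replicate 1 or 2 or chow replicate 2 or 3 (limma, Benjamini-Hochberg adjusted p 0.0511 to 0.1). Dnm2, the dynamin that severs pits from the membrane, had 164.3, 154.3 and 153.3 CPM in HFD libraries, against 149.1, 162 and 153.3 CPM in chow libraries (log2 fold change 0.02, limma, Benjamini-Hochberg adjusted p = 0.89).

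Of 10 raft and cargo genes, 1 rose and 1 fell (20%, against 35.1% of all tested genes in either direction). Insr, the insulin receptor, which resides partly in caveolae, had 335.5, 286 and 326.3 CPM in HFD libraries, against 556.4, 448.8 and 613.1 CPM in chow libraries. It fell by 0.76 on the log2 scale (SE 0.15, limma, Benjamini-Hochberg adjusted p = 0.00404), a call kept without each library in turn but not when libraries were scaled to adipocyte identity genes (-0.43, limma, Benjamini-Hochberg adjusted p = 0.0648). Cd36, the fatty acid carrier of the caveolar membrane, had 3304, 3822 and 3566 CPM in HFD libraries, against 3822, 4096 and 4040 CPM in chow libraries and did not pass (-0.16, limma, Benjamini-Hochberg adjusted p = 0.467). Flot1, a scaffold of flotillin rafts, averaged 164.8 ± 9.7 CPM in HFD and 125.1 ± 1.3 CPM in chow (SD, n = 3 each), with a log2 fold change of 0.39 (limma, Benjamini-Hochberg adjusted p = 0.0225). That call was lost without HFD replicate 2 or 3 or chow replicate 1 or 2 (limma, Benjamini-Hochberg adjusted p 0.0539 to 0.111).

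Of 12 clathrin coat genes, the other main route of endocytosis, 2 rose (16.7%, against 35.1% of all tested genes in either direction). None of the 12 fell by limma's adjusted p, by an unadjusted p under 0.05 or with voom weights. Their summed level was 2280 to 2429 CPM in HFD libraries and 2278 to 2539 CPM in chow libraries. Cltb, a clathrin light chain, rose by 0.70 on the log2 scale (SE 0.14, limma, Benjamini-Hochberg adjusted p = 0.00508) with 146, 165.4 and 160.9 CPM in HFD libraries, against 88.03, 87.43 and 116.2 CPM in chow libraries. Ap2m1, the adaptor subunit that reads sorting signals, had a log2 fold change of 0.54 (limma, Benjamini-Hochberg adjusted p = 0.0321), lost without any HFD replicate or chow replicate 3 (limma, Benjamini-Hochberg adjusted p 0.0522 to 0.113).

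**Figure D4:**
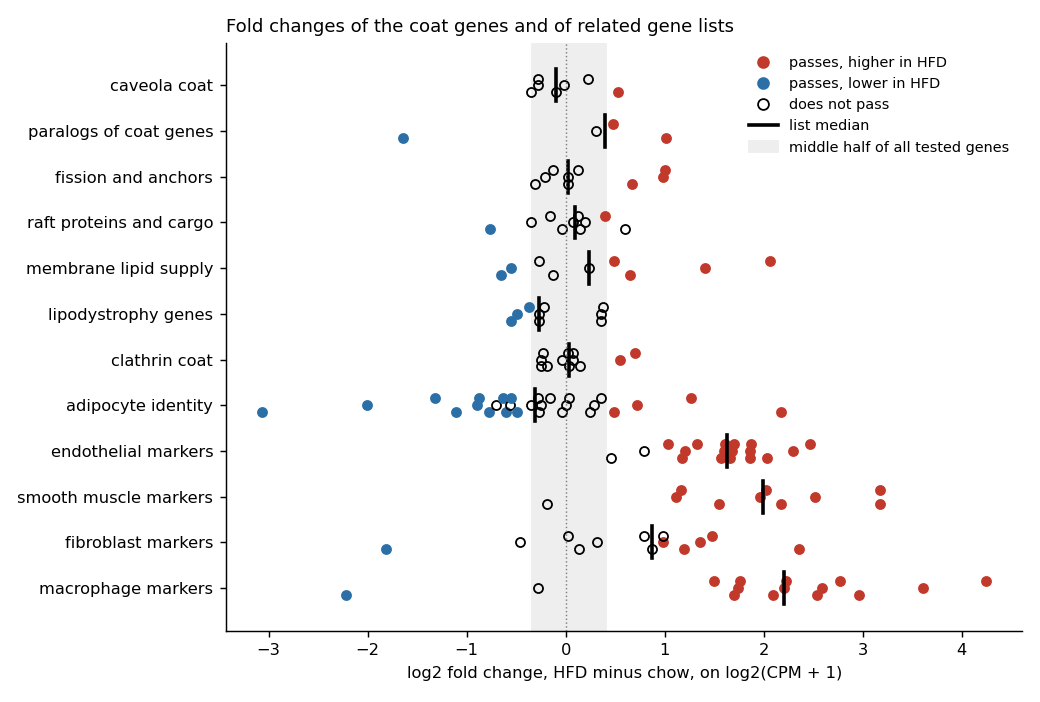
Log2 fold change, HFD minus chow, on log2(CPM + 1), of each tested gene of the caveola coat list, 6 related lists and 5 marker lists, with passing genes filled (red higher, blue lower in HFD), list medians as black bars and the middle 50% of all tested genes shaded. The coat genes run from -0.36 (Cav2) to 0.53 (Cavin3) with a median of -0.10, while the medians of endothelial and macrophage markers are 1.63 and 2.20.

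Caveolae are also dense in endothelial and smooth muscle cells, and markers of other cells moved with diet in these libraries. Of 18 endothelial markers 16 rose in HFD, and their summed level was 254.3 to 464.5 CPM in HFD libraries and 75.3 to 149.1 CPM in chow libraries. Of these 18, 11 to 16 rose without 1 library, with 11 without HFD replicate 1, and 12 rose after quantile normalization. Plvap, which forms the diaphragm of endothelial caveolae, had 4.5, 3.01 and 4.408 CPM in HFD libraries, against 1.778, 0.7474 and 0.5471 CPM in chow libraries. Of 10 smooth muscle and pericyte markers 9 rose, 7 to 9 without 1 library (summed 1413 to 1897 CPM in HFD and 1054 to 1195 CPM in chow). Mcam, the 1 marker that did not pass, gave 843.4 to 935.8 CPM of the HFD sums and 955.4 to 1075 CPM of the chow sums. Acta2 gave 362 to 661.7 CPM of the HFD sums and 38.05 to 69.55 CPM of the chow sums, so the sums differ largely through this gene.

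Of 15 macrophage markers 13 rose and 1 fell (395.2 to 697.5 CPM summed in HFD and 134.6 to 167.9 CPM in chow). Of 13 fibroblast markers 5 rose and 1 fell (2239 to 4514 CPM summed in HFD and 2646 to 3854 CPM in chow). Without 1 library 3 to 7 of them rose, and 3 rose after quantile normalization. Of 9 mesothelial markers 4 rose (63.2 to 184.6 CPM summed in HFD and 24.3 to 43.5 CPM in chow). Without 1 library 2 to 5 of them rose, and 2 rose after quantile normalization or with voom weights. No marker of the endothelial, smooth muscle, fibroblast and macrophage lists was at the lowest value of the table in any library, and 1 mesothelial marker, Krt8, was at it in chow replicate 3. In that library 3 reads came to 0.4039 CPM, so low marker values there, such as 0.5471 CPM for Plvap, rest on few reads. The shares called were 88.9% of endothelial, 90% of smooth muscle, 93.3% of macrophage, 46.2% of fibroblast and 44.4% of mesothelial markers. Of all tested genes 35.1% were called. The part of all these cell types, and of adipocyte identity genes, in the Cavin3 difference was not tested. Nor was it tested for any other gene reported here, Fyn, Csk, Flna and Ehd4 among them.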

How the data were processed

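Adipocyte TRAP RNA was measured in 3 HFD and 3 chow libraries. The authors deposited 1 table of log2 CPM per gene, in which 5 of the 6 libraries share a lowest value of 0.008669 CPM that HFD replicate 3 does not reach. HISAT2 and featureCounts, Picard and edgeR appear in the submitters' processing notes beside the mm10 build, while their versions and settings were not given in the sources used here. Values were taken out of log2, and the 11643 genes averaging 1 CPM or more across all 6 libraries were fitted on log2(CPM + 1) with limma 3.58.1 in R 4.3.3 (variance trend, Benjamini-Hochberg adjustment over all of them). Fold changes on that scale understate changes of low genes. Low values (up to 20 reads) were whole multiples of 1 read within 0.1 read in all libraries, which gave the effective library sizes. Ratios within a library were compared by two-sided exact permutation tests. Intervals are 95%. Figures were drawn with matplotlib 3.10.9.

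The planned test assumed linear CPM and was run on values taken out of log2. Members and gene lists were chosen with earlier results of these data known. Named from each list were the 2 largest rises and the 2 largest falls among passing genes, Cd36, Insr, Dnm2, Agpat2 and Bscl2 whatever their result, and the 3 genes of at least 10 CPM most like Cav1 and Cavin1. One gene named by this rule is not reported here. Alternatives were other pseudocounts, filters, scalings and models, and leaving out each library. Of 10 lymphocyte markers 1 was tested and did not pass, and of 8 skeletal muscle markers 2 were tested and 1 rose. The 5 H3K27ac and 2 PPARG samples were not analysed here. Promoter sequences are RefSeq's.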

Additional observations from a re-analysis of the deposited data

How the results depend on the processing

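Of the coat genes, 1 was called higher by limma's Benjamini-Hochberg adjusted p, 0 with no variance trend (Cavin3 then missed the threshold), 2 under adipocyte identity scaling and 0 to 2 over the fits that left out 1 library. Among all 11643 tested genes 2221 were called higher, 2172 with no variance trend and 3063 under identity scaling. Without 1 library 24.5% to 32.5% of tested genes were called in either direction. No coat gene was called lower under any alternative. Genes lower in HFD numbered 1863, 514 under adipocyte identity scaling, 737 under Cav1 scaling (added after the data were seen) and 1162 to 1740 without 1 library. Genes changed numbered 4084 and 2845 to 3788 without 1 library, and 1683 to 2102 were then higher. With voom weights on recovered reads 3995 were called. Of the called genes 54.4% were higher in HFD, 65.3% under equal totals, 85.6% under identity scaling and 46.4% after quantile normalization.

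The sign of some log2 fold changes that did not pass turned, and the cause was not tested. Cavin2 (Sdpr) came to 0.091 under equal totals, 0.12 after quantile normalization, 0.32 under identity scaling and 0.26 under Cav1 scaling, and ran from -0.13 to 0.12 without 1 library. Pacsin2 came to 0.014, 0.24 and 0.18 under equal totals, identity and Cav1 scaling, and from -0.15 to 0.008 without 1 library. Under identity scaling Cav1 came to 0.06 and Ehd2 to 0.053. Cd36 came to 0.003 (quantile), 0.17 (identity) and 0.11 (Cav1 scaling), and Bscl2 to 0.11 (identity) and 0.053 (Cav1 scaling). Dnm2 ran from -0.008 (without HFD replicate 1) to 0.056, with -0.003 without chow replicate 1, and Tmbim1 from -0.037 (without chow replicate 2) to 0.27, with -0.007 without chow replicate 1. Without 1 library Cav1 ran from -0.34 to -0.20, Cav2 from -0.46 to -0.28, Ehd2 from -0.35 to -0.19, Cavin1 from 0.04 to 0.50 and Cavin3 from 0.39 to 0.67.

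Libraries carry replicate numbers in both diets. A replicate block called 4839 genes and changed no call of a coat gene. Deviations of same-numbered libraries correlated at 0.433, 0.232 and 0.086. HFD replicate 2 with chow replicate 3 had 0.150, and all other differently numbered libraries had -0.389 to -0.036. Each HFD library was thus most like the chow library of its own number. Whether the numbers mark pairs was not tested, and the main fit used no block.

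Chow replicate 3 was the shallowest library, with an effective size of 7430000 reads, and counting error there was at most 3.43% of a coat gene level.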

Other observations

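Membrane lipid supply, on which caveolae draw for cholesterol and sphingomyelin, changed in both directions. Of 9 genes 4 rose and 2 fell (66.7%, against 35.1% of all tested genes), and 5 rose and 0 fell under adipocyte identity scaling. Sgms2, a sphingomyelin synthase of the plasma membrane, had 19.29, 25.63 and 35.51 CPM in HFD libraries, against 5.352, 5.315 and 5.816 CPM in chow libraries, and rose by 2.06 on the log2 scale (SE 0.22, limma, Benjamini-Hochberg adjusted p = 0.000168) in each of the 16 alternatives planned. Scarb1, a receptor for high-density lipoprotein, fell by 0.66 (limma, Benjamini-Hochberg adjusted p = 0.0117), lost under equal totals (limma, Benjamini-Hochberg adjusted p = 0.0527) and identity scaling. Abca1, which exports cholesterol, had 1105, 1003 and 1176 CPM in HFD libraries, against 1629, 1499 and 1675 CPM in chow libraries. It fell by 0.55 (limma, Benjamini-Hochberg adjusted p = 0.0139), lost without HFD replicate 2 (limma, Benjamini-Hochberg adjusted p = 0.0679) and under identity scaling.

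Of 9 genes mutated in inherited lipodystrophy, 3 fell and none rose by limma's adjusted p (33.3%, against 35.1% of all tested genes). With voom weights 2 fell and none rose, while 3 were higher at an unadjusted p under 0.05. The split depends on the scaling: 3 rose and 0 fell under adipocyte identity scaling, and 2 rose and 1 fell under equal totals. Without 1 library 0 to 2 fell, with 0 without HFD replicate 2 or 3 and 1 without chow replicate 1 or 3. The lipid droplet coat gene Plin1 fell by 0.56 on the log2 scale (limma, Benjamini-Hochberg adjusted p = 0.0179), a call lost without HFD replicate 2 (adjusted p = 0.0729) or 3 (adjusted p = 0.0828) and under identity scaling. Lipe, the hormone-sensitive lipase, had a log2 fold change of -0.49 (limma, Benjamini-Hochberg adjusted p = 0.0481), kept in 2 of 6 fits without 1 library, with adjusted p from 0.081 to 0.162 in the others (HFD replicates 2 and 3, chow replicates 1 and 3). It was also lost under identity scaling (-0.16, limma, Benjamini-Hochberg adjusted p = 0.439), equal totals (adjusted p = 0.0604), no variance trend (adjusted p = 0.0544) and no filter on low values (adjusted p = 0.0522). The third was Zmpste24, a lamin protease, named after its value was seen, which passed in none of those 6 fits (limma, Benjamini-Hochberg adjusted p 0.051 to 0.137). Agpat2, an enzyme of triglyceride synthesis, did not pass (0.35, limma, Benjamini-Hochberg adjusted p = 0.0936) and passed without chow replicate 2 (0.47, limma, Benjamini-Hochberg adjusted p = 0.0474) and under identity scaling (0.69). Bscl2, which encodes seipin, a protein of lipid droplet assembly, did not pass (-0.22, limma, Benjamini-Hochberg adjusted p = 0.22).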
